A study of Mus musculus with 23 samples.

Results

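In wild-type (WT) mouse germinal vesicle (GV) oocytes, mRNA captured on ribosomes (the translatome) was compared with total mRNA (the transcriptome) of the same samples. The comparison rests on 4 of the 23 libraries of the study, chosen by their labels: a translatome and a transcriptome library from each of 2 WT samples. Labels give these oocytes as untreated GV oocytes of genotype WT. Strain, age and the number of oocytes per sample are not stated. Nor is it stated whether the samples are from different animals, and the p-values below therefore reflect sample-to-sample variation that could be technical. A further 4 libraries, the same fractions of 2 samples of untreated GV oocytes heterozygous for Eif4enif1 (Eif4enif1+/-, het), entered the model to estimate that spread and serve as the genotype the study set against WT. Both fractions of a sample carry the same specimen number in the labels.

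GV oocytes are fully grown and arrested in meiotic prophase. They make almost no new RNA, so protein synthesis during maturation and the first cleavage draws on mRNAs stored during growth. Many stored mRNAs have short poly(A) tails and are kept off ribosomes until cytoplasmic polyadenylation, which depends on a U-rich cytoplasmic polyadenylation element (CPE) near the poly(A) signal. The translatome was captured with RiboLace, a matrix that carries a puromycin analogue and retains ribosomes engaged in translation, while the transcriptome came from direct lysis. A fold change between them compares a gene's share of the 2 libraries and is not the fraction of its mRNA bound to ribosomes.

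The WT translatome libraries held 38.74 M and 17.84 M counts and the transcriptome libraries 44.34 M and 44.998 M. Levels are given as CPM, counts per M counts of a library scaled by edgeR's trimmed mean of M-values (TMM), always in the order translatome of samples 1 and 2, then transcriptome of samples 1 and 2. Library identity was checked against oocyte markers, all 12 of which were detected in all 4 WT libraries. Across the 9039 genes that averaged 10 CPM or more in WT, log2 levels correlated at 0.95 between the translatome libraries, at 0.96 between the transcriptome libraries, and at 0.86 and 0.88 between fractions of sample 1 and of sample 2. Translatome sample 2, the shallowest WT library, had 34.7% of its counts in its 100 most abundant genes, against 24.3% to 25.5% in the other WT libraries.

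Of 22409 genes tested, 2006 were higher in the translatome (8.95%) and 1263 were lower (5.64%) at an adjusted p under 0.05 (edgeR, Benjamini-Hochberg over all genes tested), the threshold for every call below. In simulated counts false calls exceeded the nominal share, so more of these calls may be false than the threshold states. The median log2 fold change was 1.67 among the genes called higher and -1.19 among those called lower. Over all genes tested it was -0.04. Log2 changes of 2 or more were found for 756 genes called higher, and of -2 or less for 138 genes called lower. Within-sample log2 ratios of the 2 WT samples correlated at 0.67 (Pearson) and 0.65 (Spearman) across the 9039 genes, which are not independent replicates. Fitted to the 4 WT libraries alone, 1141 genes were higher and 429 lower. Without WT transcriptome sample 1 the numbers were 940 and 255, without transcriptome sample 2 1111 and 739, without translatome sample 1 1171 and 821, and without translatome sample 2 1581 and 617. Tested against a log2 change of 1 rather than 0, 284 genes were higher and 18 lower.

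**Figure D1:**
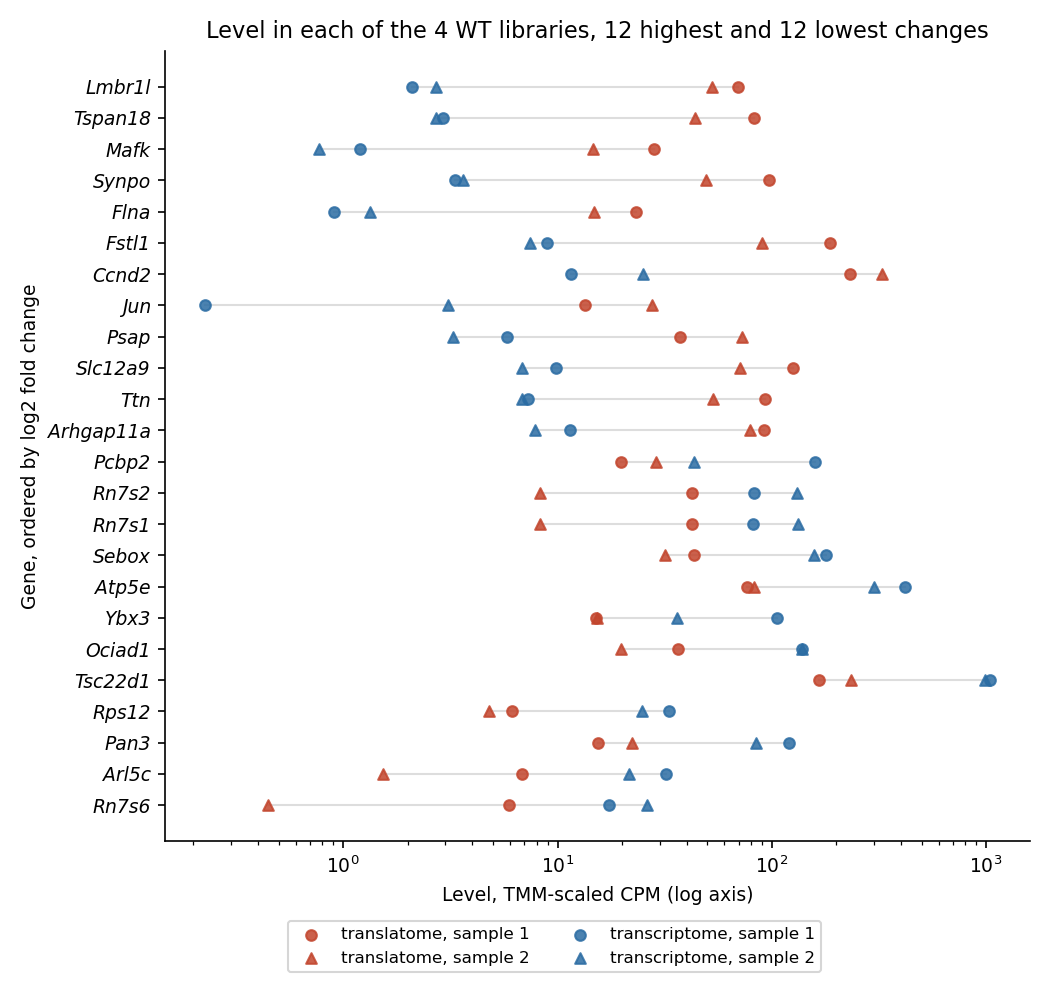
Level of the 12 genes with the highest and the 12 with the lowest log2 fold change in each of the 4 WT libraries (TMM-scaled CPM, log axis; red, translatome; blue, transcriptome; circles, sample 1; triangles, sample 2). In all 24 genes the 2 translatome libraries lie on one side of the 2 transcriptome libraries, by the rule that chose them.

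The 12 highest log2 changes are among called genes averaging 10 CPM or more, predicted genes and pseudogenes left out. Lmbr1l, a multipass membrane protein, stood at 69.9 and 52.6 CPM in the translatome and 2.098 and 2.70 CPM in the transcriptome, a log2 fold change of 4.67 (SE 0.31, adjusted p = 2.08e-05), or 25.5-fold. The tetraspanin Tspan18 had 82.8, 43.8, 2.93 and 2.70 CPM (log2 4.49, SE 0.35). Synpo, the actin-associated protein synaptopodin, had 96.9, 49.4, 3.32 and 3.63 CPM (log2 4.40, SE 0.38). In each of these the translatome of sample 1 was the higher of the pair and both transcriptome libraries were far below. The small Maf transcription factor Mafk (log2 4.44, SE 0.43) and the actin crosslinker Flna (4.10, SE 0.43) were also among the 12, with at most 1.33 CPM in either transcriptome library.

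Ccnd2, which encodes cyclin D2, had 232 and 327 CPM on ribosomes against 11.5 and 25.02 CPM in total mRNA (log2 3.93, SE 0.41). Fstl1, a secreted glycoprotein of the follistatin family, had 187, 89.8, 8.93 and 7.46 CPM (log2 4.08, SE 0.36). Psap, the precursor of the lysosomal saposins, had 37.1, 72.5, 5.82 and 3.24 CPM (log2 3.59, SE 0.38). Jun, a subunit of the AP-1 transcription factor, was the noisiest, with 0.226 and 3.08 CPM in the transcriptome (log2 3.62, SE 0.76, adjusted p = 0.0097). The remaining genes were the transporter relative Slc12a9 (log2 3.56), the giant muscle protein gene Ttn (3.37) and the GTPase-activating protein gene Arhgap11a (3.14). None of these 12 calls was lost without any 1 of the 8 GV libraries, and the largest adjusted p that resulted was 0.0254, for Jun.

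The lowest changes were smaller. Pan3, a subunit of the PAN2-PAN3 deadenylase that starts poly(A) tail shortening, fell from 120.2 and 84.1 CPM in the transcriptome to 15.5 and 22.2 CPM in the translatome (log2 -2.45, SE 0.33, adjusted p = 0.00108). Tsc22d1, a leucine zipper transcription regulator, had 167 and 234.6 CPM on ribosomes and 1049 and 991 CPM in total mRNA (log2 -2.35, SE 0.28). Ociad1, a mitochondrial and endosomal protein, had 36.5, 19.7, 138 and 138 CPM (log2 -2.29, SE 0.30). Sebox, an oocyte homeobox factor known as a maternal-effect gene, had 43.5, 31.7, 178 and 157 CPM (log2 -2.15, SE 0.26). The within-sample log2 ratios were -2.95 and -1.92 for Pan3 and -1.92 and -2.80 for Ociad1, so the samples differed in size there. The calls of these 4 mRNAs held without any 1 library.

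Ribosomal protein Rps12 (log2 -2.40) and ATP synthase subunit Atp5e (-2.18) are described with their groups below. The other members of the lowest 12 rest on fewer libraries. Their adjusted p passed 0.05 without WT transcriptome sample 2 for the 7S RNA genes Rn7s6 (log2 -2.67, then 0.0504), Rn7s1 (-2.07, then 0.0704) and its near-identical copy Rn7s2 (-2.07, then 0.0694), whose reads cannot be told apart. It passed 0.05 without transcriptome sample 1 for the Y-box protein gene Ybx3 (-2.23, then 0.0549) and the poly(C)-binding protein gene Pcbp2 (-2.06, then 0.175). For the small GTPase gene Arl5c (-2.61) it was 0.0583 without translatome sample 2.

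mRNAs of cytosolic ribosomal proteins were lower on ribosomes as a group. Of 82 tested, 53 fell, 0 rose and the median log2 change was -0.94, with medians of -1.10 in sample 1 and -0.78 in sample 2. Among all genes tested 5.64% fell and 8.95% rose. In 74 of the 82 both translatome libraries lay below both transcriptome libraries, against 7078 of all 22409 genes tested. Small subunit members (24 of 33 lower, median -0.99) and large subunit members (29 of 49 lower, median -0.88) moved in the same direction. Rps12, in the small subunit, had 6.13 and 4.80 CPM on ribosomes and 33.1 and 24.9 CPM in total mRNA (log2 -2.40, SE 0.33). Rpl41, the smallest ribosomal protein, had 64.8, 57.6, 243 and 209 CPM (log2 -1.88, SE 0.26), and Rps28 had 9.90, 8.95, 36.8 and 32.7 CPM (log2 -1.88, SE 0.29). All 3 kept their calls without any 1 library. The number lower was 27 with the 4 WT libraries alone and between 11 (without transcriptome sample 1) and 30 when 1 WT library was left out. Ribosomal protein genes have many processed pseudogenes, so their counts are uncertain wherever reads could be split between copies.

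Ribosomal protein mRNAs are known for a terminal oligopyrimidine (TOP) tract at their 5′ end, through which nutrient signalling controls their translation. The starts of the 6 with the smallest p among those called lower that hold a run of at least 8 pyrimidines are shown because such runs were more common in ribosomal protein genes than in the table of promoters as a whole. Each sequence is RefSeq, build GRCm38.p6, from 15 bases before the annotated start to 15 bases from it. Capitals mark the longest pyrimidine run. Rps12, Rpl41 and Rps28, named above, are not shown, as their longest runs were 7, 3 and 4 bases. In Rpl31 the marked run lies wholly before the annotated start.
Rps27 (chr3:90213634-90213663, minus strand): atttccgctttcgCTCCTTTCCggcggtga
Rpl31 (chr1:39367836-39367865, plus strand): CTTCCTCCTCgcctccccgtgacccggaag
Rpl38 (chr11:114668565-114668594, plus strand): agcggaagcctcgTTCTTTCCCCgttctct
Rps10 (chr17:27635230-27635259, minus strand): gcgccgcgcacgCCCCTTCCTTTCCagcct
Rpl28 (chr7:4792950-4792979, plus strand): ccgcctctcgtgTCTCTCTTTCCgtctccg
Rpl39 (chrX:37085208-37085237, minus strand): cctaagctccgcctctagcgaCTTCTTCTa

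A run of 8 or more bases that are all C or T, on the sense strand in these 30 bases, was found in 26 of the 61 ribosomal protein genes matched (42.6%) and in 3205 of 27025 promoters in the table (11.9%). Among genes called lower that are not ribosomal proteins the share was 11.0% (66 of 598), among genes called higher 10.8% (148 of 1376) and among the rest 12.2%. Such runs were therefore no more frequent in the other genes called lower than in promoters at large. Annotated starts are often some bases away from the start used in a tissue, and a match is a description of these letters. The elongation factor Eef1a1, whose mRNA is also a known TOP mRNA, had 233, 199.9, 331 and 317 CPM (log2 -0.58, SE 0.24, adjusted p = 0.118).

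Subunits of the mitochondrial respiratory chain and ATP synthase that are encoded in the nucleus moved the same way. Of 76 tested, 28 fell and 2 rose (median log2 -0.84, -1.31 in sample 1 and -0.45 in sample 2). The shares of all genes tested were 5.64% and 8.95%. By complex, 13 of 37 complex I members, 4 of 9 of complex III, 5 of 10 of complex IV and 6 of 15 of ATP synthase fell, and 0 of 4 of complex II. Atp5e, a small subunit of the ATP synthase rotor stalk, had 76.5, 82.2, 420.2 and 299 CPM (log2 -2.18, SE 0.31). The complex III subunit Uqcrq had 76.1, 91.1, 256 and 222 CPM (log2 -1.52, SE 0.27), and the ATP synthase c-ring gene Atp5g1 had 97.8, 88.4, 255 and 242 CPM (log2 -1.42, SE 0.25). These 3 kept their calls without any 1 library. The 2 that rose are the large subunits Sdha, the catalytic subunit of complex II (213, 205, 96.1 and 104 CPM, log2 1.06, SE 0.26), and Ndufs1, the largest of complex I (log2 1.06, SE 0.28). Both lost the call without transcriptome sample 1 (adjusted p = 0.109 and 0.178). When 1 WT library was left out the number lower ranged from 6 (without transcriptome sample 1) to 43, and it was 16 with the WT libraries alone.

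Proteins of the mitochondrial ribosome gave the same picture, with 31 of 78 lower, 0 higher and a median of -0.74. All genes tested had 5.64% lower and 8.95% higher. Mrpl54 had 19.4 and 19.6 CPM on ribosomes and 57.7 and 57.0 CPM in total mRNA (log2 -1.56, SE 0.25). Mrps24 (38.8, 39.1, 116 and 98.2 CPM, log2 -1.46) and Mrpl58, a peptidyl-tRNA hydrolase of the large subunit (44.1, 50.02, 115 and 117 CPM, log2 -1.30), were also lower, and all 3 calls held without any 1 library. The number lower was between 7 (without transcriptome sample 1) and 14 when 1 WT library was left out.

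The 13 mRNAs encoded in mitochondrial DNA are translated on mitochondrial ribosomes, and the labels do not say whether the capture retains these. Of them 3 were lower and 0 higher, with a median of -0.73: mt-Nd2 (31.5, 26.7, 112 and 85.6 CPM, log2 -1.76, SE 0.38), mt-Co3 (163, 107, 261 and 339 CPM, log2 -1.15, SE 0.32) and, under the level asked of named genes, mt-Nd3. With sample as a replicate block, a term for the specimen, 5 were lower. Calls made up 8.95% (higher) and 5.64% (lower) of all genes tested. In 12 of these 13 mRNAs the log2 change was below 0. None was called without transcriptome sample 1, 1 without either library of sample 2 and 4 without translatome sample 1. The call of mt-Nd2 had an adjusted p of 0.051 without transcriptome sample 1, and that of mt-Co3 0.141 without translatome sample 2.

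**Figure D2:**
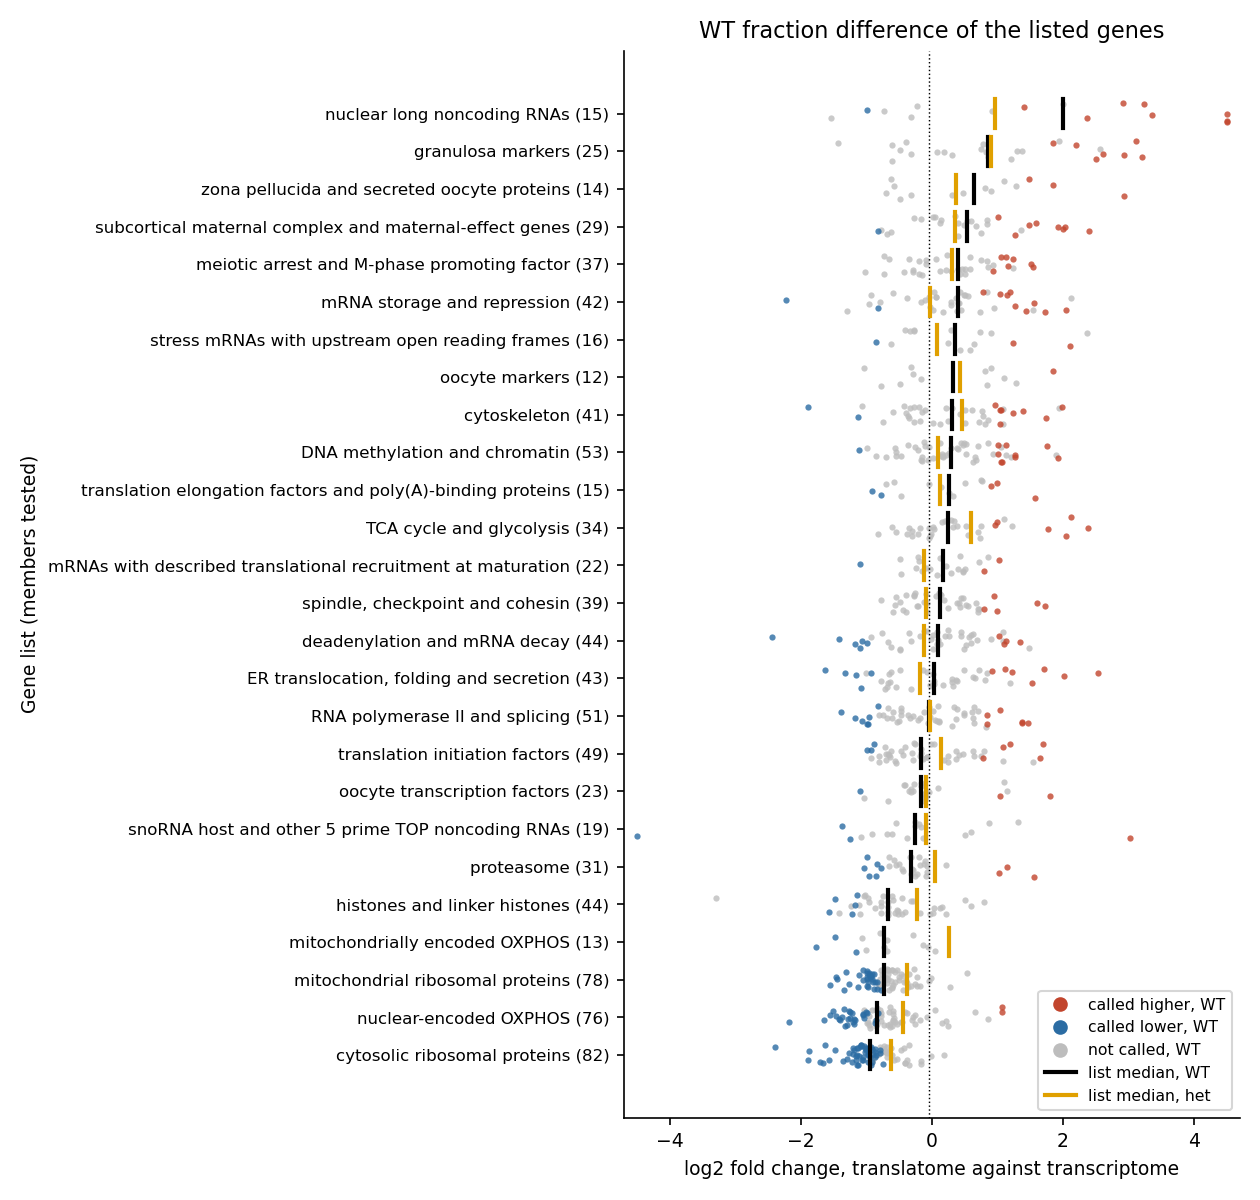
Log2 fold change of translatome against transcriptome for the tested members of 26 gene lists in WT oocytes (points; red, called higher; blue, called lower; grey, not called), with the WT median (black bar) and the het median (yellow bar) of each list and the median of all genes tested (dotted line). The 4 points beyond 4.5 are drawn at the edge; cytosolic ribosomal proteins lie lowest (median -0.94) and nuclear long noncoding RNAs highest (2.01).

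The proteins in these 3 groups are short, and coding length itself went with the fraction difference. Among 7700 protein-coding genes of at least 10 CPM on average that have a complete annotated transcript, Spearman's coefficient between coding length and log2 fold change was 0.48 across genes (0.49 in sample 1 and 0.40 in sample 2). Of 5 groups of equal size, the shortest coding regions (78 to 687 bases) had a median log2 change of -0.58, with 366 of 1542 genes lower and 32 higher. Medians of the next 3 groups were -0.23, 0.01 and 0.29. The longest (2385 bases and above) had a median of 0.39, with 343 of 1540 higher and 30 lower. Over all 15151 matched coding genes the median coding length was 582 bases among genes called lower, 1320 among those not called and 1947 among those called higher. Total transcript length gave a Spearman coefficient of 0.42, the 3′ untranslated region 0.21 and the 5′ untranslated region 0.11.

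**Figure D3:**
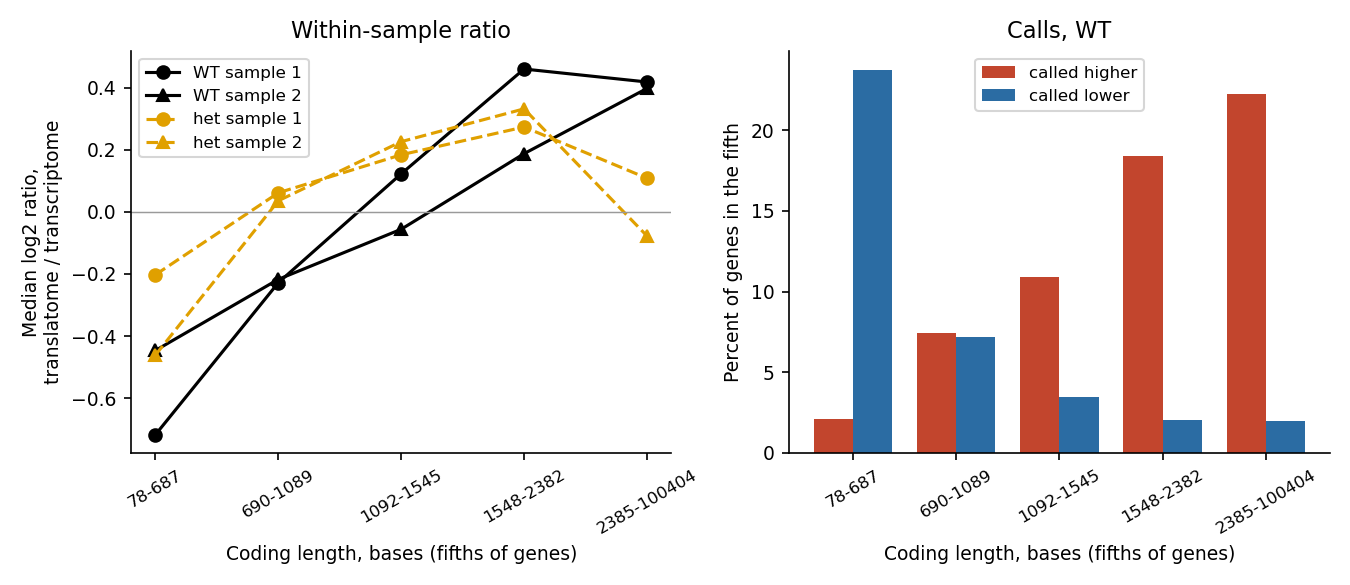
Left, median log2 ratio of translatome to transcriptome within each sample for 5 groups of genes by coding length (bases; black, WT; yellow, het; circles, sample 1; triangles, sample 2). Right, percent of the genes in each group called higher (red) or lower (blue) in WT, from 2.08% and 23.7% in the shortest to 22.3% and 1.95% in the longest.

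Set against genes of similar coding length (the median of 20 bins, an alternative chosen after seeing the data), the median of the cytosolic ribosomal proteins moved from -0.94 to -0.46 and that of mitochondrial ribosomal proteins from -0.74 to -0.35. Nuclear-encoded respiratory subunits moved from -0.84 to -0.32. Histones and linker histones, with 5 of 44 lower, 0 higher (all genes tested, 5.64% and 8.95%) and a median of -0.67, moved to -0.11. Mitochondrially encoded mRNAs stayed at -0.74. Among single genes the bin-relative log2 change was -1.87 for Rps12, -1.49 for Atp5e and -1.19 for Rpl41. Some genes lay far from others of their length: Pan3, with 2514 coding bases, was at -2.92 and Mafk, with 471, at 4.97. No histone was called lower without transcriptome sample 1 or translatome sample 2, and 3 were without either of the other WT libraries.

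Of 14 genes listed as zona pellucida and secreted oocyte proteins, among them the receptor gene Kit, 3 rose and 0 fell. Their median was 0.65, with 0.09 in sample 1 and 0.84 in sample 2. Calls were 8.95% higher and 5.64% lower over all genes tested. In 7 of the 14 both translatome libraries lay above both transcriptome libraries, against 6211 of all 22409 genes tested. With the replicate block 5 rose, as they did without translatome sample 1, and 1 rose without translatome sample 2. Astl, the ovastacin protease that cleaves the zona pellucida after fertilization, had 1460.3 and 4335 CPM on ribosomes and 439 and 320.2 CPM in total mRNA (log2 2.93, SE 0.53, adjusted p = 0.00482). Zp2, a zona pellucida glycoprotein, had 4725, 10662, 1674 and 2588 CPM (log2 1.85, SE 0.44), and Kit, the receptor for Kit ligand, had 168, 275, 96.4 and 61.5 CPM (log2 1.49, SE 0.32). The calls of Zp2 and Kit were lost without transcriptome sample 1 (adjusted p = 0.108) and transcriptome sample 2 (0.0709).

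The other zona genes and the growth factors had values above 0 that did not pass the test. Zp1 had 2484, 4708, 1349 and 1992 CPM (log2 1.11, SE 0.43, adjusted p = 0.0972, and 0.0198 with the replicate block). Zp3 had 5345 CPM on ribosomes against 5201 CPM in sample 1, but 21285 against 5724 CPM in sample 2 (log2 1.29, SE 0.55, adjusted p = 0.128). Gdf9 likewise had 7245 and 15865 CPM on ribosomes and 6571 and 6567 CPM in total mRNA (log2 0.81, SE 0.38, adjusted p = 0.159). Bmp15 had 2501, 3186, 1184 and 1867 CPM (log2 0.90, SE 0.30, adjusted p = 0.0616, and 0.0244 with the block). For Zp3 and Gdf9 the difference was carried by translatome sample 2, the library with the most counts in few genes. Over all genes tested 8.95% rose and 5.64% fell, or 2238 and 1660 of 22409 with the block. Of the 12 oocyte markers, 1 rose (Zp2) and 0 fell, or 4 and 1 with the block. Without translatome sample 1 there were 3 that rose, and without transcriptome sample 1 or translatome sample 2 there were 0.

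Genes of the subcortical maternal complex and other maternal-effect genes, whose products are needed for the first cleavages, had 8 of 29 higher and 1 lower, with a median of 0.54. For all genes tested the shares were 8.95% and 5.64%. Nlrp5, also called Mater, had 1972, 5318, 533 and 843 CPM (log2 2.41, SE 0.44) and kept its call without any 1 library. Padi6, required for cytoplasmic lattices, had 6471, 16454, 2458 and 3137 CPM (log2 2.03, SE 0.49), and Uhrf1, which guides maintenance DNA methylation, had 587, 1017, 238 and 184 CPM (log2 1.93, SE 0.43). In these 3 both translatome libraries were above both transcriptome libraries, sample 2 more so. Zar1l, a relative of the mRNA-binding protein Zar1, fell (358, 374, 668 and 632 CPM, log2 -0.83, SE 0.24). Left out in turn, transcriptome sample 1 took the adjusted p of Padi6 to 0.0956 and that of Zar1l to 0.152, and transcriptome sample 2 that of Uhrf1 to 0.063. The number higher was between 2 (without translatome sample 2) and 8 when 1 WT library was left out.

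**Figure D4:**
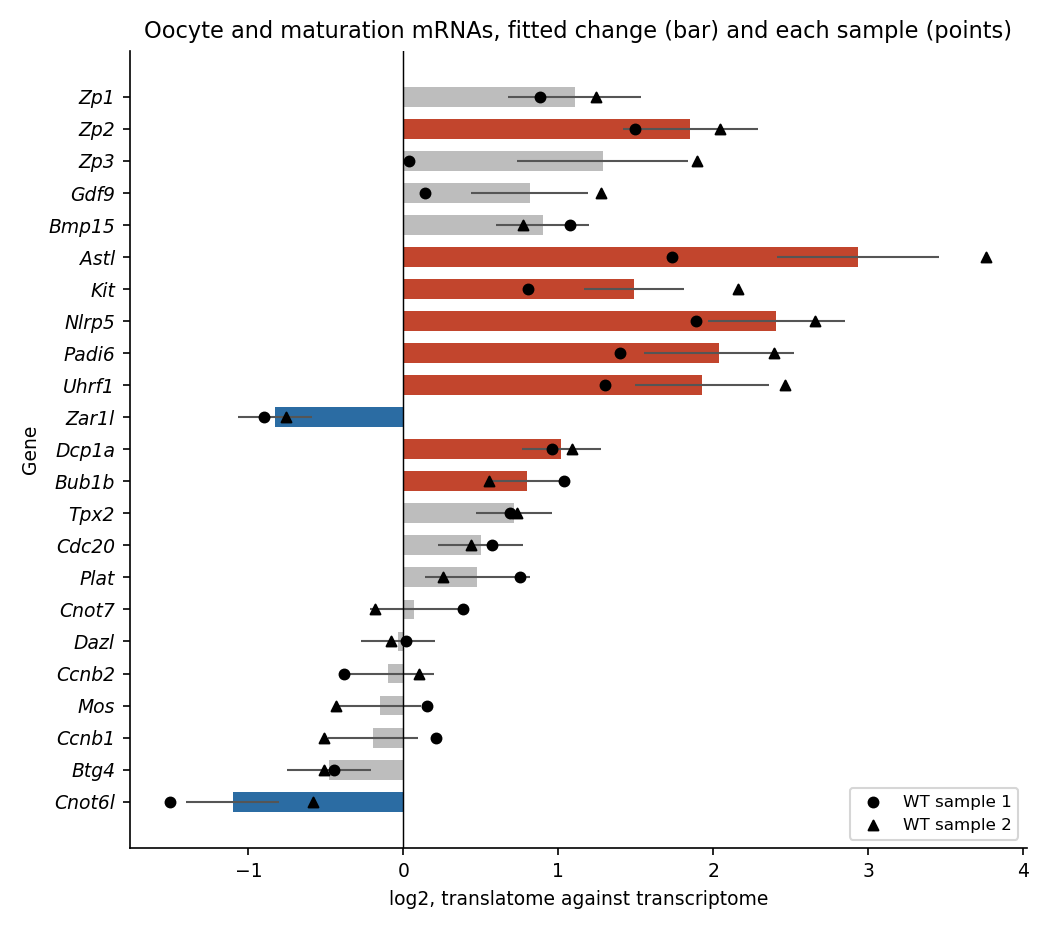
Fitted log2 fold change of translatome against transcriptome (bars, with SE; red, called higher; blue, called lower; grey, not called) and the within-sample log2 ratio of each WT sample (circles, sample 1; triangles, sample 2) for 23 oocyte and maturation mRNAs. Astl has the highest bar (2.93) and Cnot6l the lowest (-1.10).

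mRNAs described as recruited to ribosomes during maturation are stored in the GV oocyte. Of 22 tested, 2 rose and 1 fell, shares near the 8.95% and 5.64% of all genes tested. The median of these mRNAs was 0.17 (all genes tested, -0.04). Their 3′ ends are shown because cytoplasmic polyadenylation acts there. CPE forms TTTTAT and TTTTAAT were searched on the mRNA strand in the last 100 bases of the annotated 3′ untranslated region, and poly(A) signals AATAAA and ATTAAA beside them. A CPE match was found in 10 of the 22 (45.5%) and in 18.1% of 15151 coding transcripts. In the windows below (GENCODE transcripts, mm10) capitals mark the CPE match nearest the end and a poly(A) signal where it lies in the same 30 bases. The last 4 mRNAs, which were not called, were chosen after their values were seen. The signal shares letters with the CPE in Dcp1a and adjoins it in Bub1b.
Dcp1a (chr14:30527011-30527040, plus strand): aaatatatttTTTTAATAAAatttcaaaac
Bub1b (chr2:118641556-118641585, plus strand): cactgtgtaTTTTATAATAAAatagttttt
Cdc20 (chr4:118432911-118432940, minus strand): ttttaTTTTATtttttctAATAAAgttcgt
Cnot7 (chr8:40493036-40493065, minus strand): ttaaggtacaTTTTATatcAATAAAaatac
Plat (chr8:22782745-22782774, plus strand): gtatatttataTTTTAATctattttagttt
Btg4 (chr9:51119797-51119826, plus strand): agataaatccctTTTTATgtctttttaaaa

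Dcp1a, a decapping activator, had 419 and 354 CPM on ribosomes and 215 and 167 CPM in total mRNA (log2 1.02, SE 0.25, adjusted p = 0.0198). Bub1b, the spindle checkpoint kinase BubR1, had 598, 481, 292 and 329 CPM (log2 0.80, SE 0.25, adjusted p = 0.0453). The Bub1b call lay near the threshold. It was lost without TMM scaling, in the WT libraries alone and whichever het library was left out. The other 4 mRNAs shown were not called: Cdc20, the activator of the anaphase-promoting complex, at 0.50 (SE 0.28), the deadenylase Cnot7 at 0.07 (SE 0.29), tissue plasminogen activator Plat at 0.48 (SE 0.34) and the deadenylation adaptor Btg4 at -0.48 (SE 0.27). Btg4 had 2013 and 2007 CPM on ribosomes, below the 2746 and 2860.2 CPM of total mRNA. A CPE match in these last 100 bases was thus found in mRNAs on both sides of 0.

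Among those with no match in the window, Mos, a kinase of meiotic maturation, had 751, 655, 675 and 883 CPM (log2 -0.15, SE 0.26). Dazl, an RNA-binding translational activator, had 647, 669, 638 and 708 CPM (log2 -0.03, SE 0.24). Cyclin B1 (Ccnb1) had 1123, 1130.2, 970.5 and 1609 CPM (log2 -0.20, SE 0.29). For Mos, Dazl and Ccnb1 the 2 groups overlapped and the 2 samples differed in sign. Tpx2, a spindle assembly factor, had 153, 194, 95.01 and 116 CPM (log2 0.71, SE 0.24, adjusted p = 0.0651), with both translatome libraries above. Cnot6l, the catalytic deadenylase of maternal mRNA clearance, fell (48.3, 51.6, 137 and 77.1 CPM, log2 -1.10, SE 0.30, adjusted p = 0.028), and decapping enzyme Dcp2 did not pass the test (0.12). Each of the 3 calls in this group was lost without 1 library: Dcp1a without transcriptome sample 2 (adjusted p = 0.137), Bub1b and Cnot6l without transcriptome sample 1 (0.232 and 0.251).

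Across all coding genes a CPE match was found in 18.3% of mRNAs higher on ribosomes (308 of 1684), in 18.3% of those not called (2344 of 12774) and in 13.1% of those lower (91 of 693), whose 3′ untranslated regions were also shorter (median 373 bases against 1126.5 in those higher). Within groups of like coding length, mRNAs with and without a match had close medians: -0.46 and -0.60 in the shortest, 0.02 and -0.00 in the middle and 0.37 and 0.39 in the longest. These shares and medians are given as a description with no test.

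Regulators of meiotic arrest and of M-phase promoting factor had 7 of 37 higher and 0 lower (median 0.40), or 8 and 2 with the replicate block. Gpr3, the receptor that keeps cyclic AMP high during arrest, had 214, 187, 63.6 and 76.1 CPM (log2 1.52, SE 0.29). Ppp2ca, a catalytic subunit of protein phosphatase PP2A, had 120.0, 79.2, 48.0 and 20.1 CPM (log2 1.55, SE 0.35). Of spindle, checkpoint and cohesin genes, 5 of 39 rose and 0 fell, against 8.95% and 5.64% of all genes tested. Incenp, the scaffold of the chromosomal passenger complex, had 98.7, 87.8, 31.4 and 24.8 CPM (log2 1.73, SE 0.26) and held its call without any 1 library. Separase, Espl1, had 109.8, 97.4, 46.6 and 21.6 CPM (log2 1.603, SE 0.35), and the kinesin Kif11 had 33.7, 37.5, 18.5 and 18.2 CPM (log2 0.95, SE 0.25). Without transcriptome sample 1 the adjusted p was 0.0514 for Gpr3 and 0.101 for Kif11, and without transcriptome sample 2 it was 0.0773 for Ppp2ca and 0.0571 for Espl1. When 1 WT library was left out, 1 (without transcriptome sample 2) to 5 meiotic regulators and 2 (without either transcriptome library) to 3 spindle genes were higher. In those fits 1 meiotic regulator was lower without transcriptome sample 2, and 2 spindle genes were lower without translatome sample 2.

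Of 49 translation initiation factors 5 rose and 3 fell (median -0.16), or 7 and 5 with the replicate block. These shares are near the 8.95% and 5.64% of all genes tested. Eif3a, the largest subunit of the eIF3 scaffold, had 79.1, 104, 27.1 and 31.4 CPM (log2 1.65, SE 0.26), and the cap-complex scaffold Eif4g1 had 46.1, 71.9, 19.4 and 16.8 CPM (log2 1.70, SE 0.29). Eif3b rose as well (log2 1.09, SE 0.28). The short subunit Eif3g fell (133, 135, 267 and 264.1 CPM, log2 -0.98, SE 0.25), as did the start-site factor Eif1ax (234.8, 258, 465 and 478 CPM, log2 -0.94, SE 0.24) and the cap-binding repressor Eif4e2 (log2 -0.89, SE 0.23). Left out in turn, each WT library brought the numbers to 3 and 0. Calls of Eif3a and Eif4g1 held without any 1 library. Those of Eif3b and Eif3g were lost without transcriptome sample 1 (adjusted p = 0.124 and 0.0874) and those of Eif1ax and Eif4e2 without translatome sample 1 (0.0924 and 0.117).

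Of 15 elongation factors and poly(A)-binding proteins, 3 rose and 2 fell (median 0.26), against 8.95% and 5.64% of all genes tested. Eef2k, the kinase that inhibits elongation factor 2, had 307, 213, 103 and 71.9 CPM (log2 1.57, SE 0.28), and the release factor Etf1 had 70.5, 52.6, 34.5 and 31.1 CPM (log2 0.91, SE 0.25). Pabpc1, the somatic poly(A)-binding protein, had 11.0, 13.2, 7.06 and 5.03 CPM (log2 1.001, SE 0.31). Tpt1, a TOP mRNA, fell (79.5, 117, 192 and 180.3 CPM, log2 -0.92, SE 0.26), as did the exchange factor subunit Eef1d (log2 -0.77, SE 0.24), while Eef2 did not pass the test (0.32, SE 0.26). With 1 WT library left out, 1 to 2 were higher and 0 to 1 lower, the larger numbers without translatome sample 2. Of the 5 calls only that of Eef2k held without any 1 library. The call of Eef1d was lost whichever of the 8 libraries was left out. It was also lost with other scalings, other gene filters and the WT libraries alone. Pabpc1 lost its call without 7 of the 8 libraries, without TMM scaling and in the WT libraries alone. Without translatome sample 1 the adjusted p was 0.185 for Etf1 and 0.178 for Tpt1, without transcriptome sample 1 it was 0.22 for Eef1d, and without transcriptome sample 2 0.197 for Pabpc1.

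Proteins that store or repress mRNA had 9 of 42 higher and 2 lower (median 0.39), against 8.95% and 5.64% of all genes tested. Cpeb1, which binds the CPE, had 734, 1034, 328 and 447 CPM (log2 1.19, SE 0.30). Nanos1 had 54.0, 55.8, 28.5 and 12.1 CPM (log2 1.44, SE 0.34), and the granule protein Tdrd7 had 13.4, 19.5, 5.30 and 5.80 CPM (log2 1.56, SE 0.31). Those that fell were Ybx3 and Zar1l. Eif4enif1, the eIF4E-binding P-body protein after which the study is named, had 312, 270.2, 217 and 222 CPM in WT oocytes (log2 0.41, SE 0.26, adjusted p = 0.3). Without transcriptome sample 1 the list had 4 higher and 0 lower, without transcriptome sample 2 it had 5 and 3, and without translatome samples 1 and 2 it had 7 and 1, and 6 and 1. Calls were lost for Cpeb1 without transcriptome sample 1 (adjusted p = 0.152) and for Nanos1 without transcriptome sample 2 (0.0763).

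Deadenylation and decay genes had 4 of 44 higher and 6 lower (median 0.09), against 8.95% and 5.64% of all genes tested. The partners of the PAN2-PAN3 deadenylase were called in opposite directions, Pan2 at 119, 101, 43.0 and 44.0 CPM (log2 1.34, SE 0.24) and Pan3 as given above. Cnot8, a CCR4-NOT deadenylase, rose (376, 486, 175 and 227 CPM, log2 1.10, SE 0.27). Of the small LSM ring proteins that bind deadenylated mRNA, 4 fell, among them Lsm5 (28.8, 45.5, 114 and 83.9 CPM, log2 -1.42, SE 0.32) and Lsm1 (41.6, 40.9, 74.7 and 88.7 CPM, log2 -0.99, SE 0.23). Numbers higher and lower were 2 and 1 without translatome sample 1, 2 and 2 without transcriptome sample 1, and 4 and 4 without transcriptome sample 2. The Pan2 and Pan3 calls held without any 1 library. Others did not: Cnot8 without transcriptome sample 1 (adjusted p = 0.141), Lsm5 without translatome sample 1 (0.0762) and Lsm1 without transcriptome sample 2 (0.0868).

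Of 43 genes of ER translocation, folding and secretion, 7 rose and 5 fell (median 0.03), against 8.95% and 5.64% of all genes tested. The ER chaperone Hspa5, also called BiP, had 532, 1388, 161 and 171 CPM (log2 2.53, SE 0.40). The disulfide isomerase Pdia3 had 176, 668, 109 and 98.5 CPM (log2 2.02, SE 0.47), and the channel-forming translocon subunit Sec61a1 had 139, 89.2, 33.1 and 36.6 CPM (log2 1.71, SE 0.30). The small translocon subunit Sec61g fell (94.7, 105, 347 and 269.9 CPM, log2 -1.63, SE 0.29), as did the retrieval receptor Kdelr2 (log2 -1.32, SE 0.25) and the oligosaccharyltransferase peptide Ost4 (log2 -1.16, SE 0.27). Only 2 were higher without either transcriptome library or translatome sample 2, against 9 without translatome sample 1. Without either library of sample 1, or transcriptome sample 2, 3 were lower. Calls of Pdia3 and Ost4 were lost without translatome sample 2 (adjusted p = 0.156) and translatome sample 1 (0.103).

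In the proteasome 3 of 31 rose and 6 fell, against 8.95% and 5.64% of all genes tested. All 3 that rose belong to the regulatory particle: Psmd13 (17.3, 37.1, 9.68 and 8.74 CPM, log2 1.55, SE 0.40), Psmd2 (log2 1.15, SE 0.33) and Psmd3 (log2 1.02, SE 0.30). Of the 14 core particle genes 5 fell, including Psma7 (430.4, 400.1, 803 and 845 CPM, log2 -0.99, SE 0.25) and Psma4 (log2 -0.86, SE 0.23), and of the regulatory ATPases Psmc2 fell (log2 -1.03, SE 0.23). Each of the 6 calls named here was lost without 1 library, with adjusted p of 0.166 for Psmd13 (without translatome sample 2), 0.197 for Psmd2, 0.221 for Psmd3 and 0.116 for Psma4 (without transcriptome sample 1), and 0.0883 for Psma7 and 0.0822 for Psmc2 (without transcriptome sample 2). Without either library of sample 2 none of the 31 was called. Enzymes of the TCA cycle and glycolysis had 6 of 34 higher and 0 lower (median 0.24). Without transcriptome sample 1 there were 2 and without translatome sample 2 there were 3 that rose. Among them were phosphofructokinase Pfkl (29.8, 53.7, 6.99 and 8.90 CPM, log2 2.39, SE 0.35), the TCA enzyme Ogdh (66.3, 100.4, 25.04 and 23.7 CPM, log2 1.77, SE 0.33) and lactate dehydrogenase Ldha (log2 2.12, SE 0.43, adjusted p = 0.0544 without transcriptome sample 1). The glycolytic gene Gapdh did not pass the test (10.8, 11.5, 13.5 and 14.0 CPM, log2 -0.30).

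DNA methylation and chromatin genes had 9 of 53 higher and 1 lower (median 0.29). The maintenance methyltransferase Dnmt1 had 1782, 1916, 659 and 438 CPM (log2 1.75, SE 0.30), the de novo methyltransferase Dnmt3a had 149, 156, 57.8 and 69.1 CPM (log2 1.27, SE 0.26) and the histone methyltransferase Ezh1 rose too (log2 1.13, SE 0.25). The demethylase Kdm6b fell (56.4, 67.5, 156 and 111 CPM, log2 -1.11, SE 0.26). RNA polymerase II subunits had 1 of 12 higher, the second-largest subunit Polr2b (115, 125, 61.6 and 71.8 CPM, log2 0.85, SE 0.24), and 5 lower, among them the short Polr2l (189, 216, 582 and 473 CPM, log2 -1.38, SE 0.31), Polr2i (-1.18) and Polr2f (-0.995). Of 39 splicing factors 5 rose and 2 fell, against 8.95% and 5.64% of all genes tested. Sf3b3 (log2 1.37, SE 0.24) and Snrnp70 (1.47, SE 0.29) were among those that rose. Of the chromatin genes 4 were higher and 4 lower without transcriptome sample 2, and 5 were higher without either translatome library. Of polymerase and splicing genes together, 2 rose and 0 fell without translatome sample 1, 5 and 0 without transcriptome sample 1, and 2 and 3 without transcriptome sample 2. Calls of Dnmt1, Sf3b3 and Snrnp70 held without any 1 library. The adjusted p without transcriptome sample 1 was 0.0738 for Dnmt3a, 0.124 for Kdm6b, 0.192 for Polr2b, 0.0699 for Polr2l, 0.0751 for Polr2i and 0.134 for Polr2f. For Ezh1 it was 0.0626 without transcriptome sample 2.

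Cytoskeletal genes had 8 of 41 higher and 2 lower (median 0.31), with 4 higher without transcriptome sample 1 and 3 without transcriptome sample 2. Arpc3, an Arp2/3 complex subunit with 537 coding bases, rose (250.05, 243, 78.7 and 68.5 CPM, log2 1.74, SE 0.25), as did the kinesin Kif5b (51.4, 40.9, 19.8 and 19.4 CPM, log2 1.24, SE 0.25) and Actb (231, 313, 115 and 151 CPM, log2 1.03, SE 0.28). The actin-monomer binders Tmsb10 (202, 199, 824 and 656 CPM, log2 -1.88, SE 0.28) and Pfn1 (146, 319, 559 and 457 CPM, log2 -1.13, SE 0.32) fell. Of 23 oocyte transcription factors 2 rose and 1 fell, or 3 and 2 with the replicate block. Among all genes tested 8.95% rose and 5.64% fell without the block. Stat3 (208, 245, 58.1 and 71.2 CPM, log2 1.81, SE 0.29) and Pou5f1 (log2 1.05, SE 0.29) rose and Foxo3, a brake on follicle activation, fell (39.7, 61.7, 138 and 78.4 CPM, log2 -1.09, SE 0.31). Among 16 stress mRNAs with upstream open reading frames 2 rose and 1 fell, against the same 8.95% and 5.64%. Of these Ppp1r15b, a phosphatase subunit acting on eIF2, rose (log2 1.24, SE 0.31), Ddit3 fell (log2 -0.85, SE 0.24), and Atf4 had 132, 101, 137 and 144 CPM (log2 -0.27, SE 0.25, adjusted p = 0.478). Calls were lost without transcriptome sample 1 for Actb (adjusted p = 0.191), Foxo3 (0.275) and Ddit3 (0.148), without transcriptome sample 2 for Ppp1r15b (0.123), and without translatome sample 1 for Pfn1 (0.183) and Pou5f1 (0.195). Histones called lower and named by the rule were H2afj (log2 -1.17, SE 0.29) and Hist1h2bk (-1.23, SE 0.34), both lost without translatome sample 2 (0.119 and 0.153).

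RNAs that are not translated were also found in the ribosome capture. Of 15 nuclear long noncoding RNAs tested, 8 were higher in the translatome and 1 was lower (median 2.01). The shares over all genes tested were 8.95% and 5.64%. Malat1, which resides in nuclear speckles, had 251 and 343 CPM in the translatome and 36.6 and 41.8 CPM in the transcriptome (log2 2.92, SE 0.38). Gm37376 (200.3, 307, 23.8 and 30.03 CPM, log2 3.23, SE 0.41) lies within Malat1 on the opposite strand, so the reads of the pair cannot be told apart. Xist, the RNA that coats the inactive X chromosome, had 298 and 61 counts in the translatome and 12 and 0 in the transcriptome (log2 5.31, SE 0.80), and shares sequence positions with its antisense partner Tsix (5.52). The others that rose, below the level asked of named genes and so chosen after their values were seen, were Neat1 (log2 5.44), Rian (3.36), Firre (2.36) and Kcnq1ot1 (1.40). Pvt1 fell (38.6, 32.7, 70.8 and 71.8 CPM, log2 -0.997, SE 0.24, adjusted p = 0.094 without translatome sample 2). With the replicate block 2 fell. Between 6 and 7 were higher when any 1 WT library was left out.

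The summed level of this list was 561 and 733 CPM in the WT translatome against 196 and 200.2 CPM in the WT transcriptome. As above, 8.95% of all genes tested rose and 5.64% fell. Of snoRNA host and other noncoding RNAs with TOP starts, 1 of 19 rose and 3 fell, among them Snhg6 (log2 -1.26, SE 0.29, adjusted p = 0.0644 without translatome sample 1) and Snhg18 (log2 -1.37, SE 0.33, 0.0808 without transcriptome sample 1). By annotation class, 1699 of 15321 protein-coding genes were higher and 703 lower. Of 2177 processed pseudogenes 352 were lower (16.2%) and 23 higher, with a median of -0.90, close to that of the ribosomal proteins. Of 1427 lincRNAs 79 were lower and 42 higher. The part of RNA not on ribosomes in the other results was not tested.

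Some markers of granulosa cells, which surround the oocyte in the follicle, were higher in the translatome too. Of 25 tested 7 rose and 0 fell (median 0.86), against 8.95% and 5.64% of all genes tested. The log2 change was above 0 in 19 and below 0 in 6. Both translatome libraries lay above both transcriptome libraries in 15 and below in 4 (6211 and 7078 of all 22409 genes). Sums were 200.2 and 392 CPM in the translatome and 120 and 209 CPM in the transcriptome. The higher transcriptome sum thus exceeded the lower translatome sum. Amhr2, the receptor for anti-Mullerian hormone, had 4.83, 10.4, 1.04 and 1.40 CPM (log2 2.62, SE 0.41), and the activin-binding protein Fst had 4.73, 9.40, 0.406 and 1.42 CPM (log2 2.93, SE 0.51). The defining markers Fshr (adjusted p = 0.74) and Cyp19a1 (0.317) were not called. Fshr had 2.88, 3.13, 1.22 and 3.61 CPM and Cyp19a1 38.2, 28.7, 40.7 and 47.8 CPM. For Cyp19a1 both translatome libraries lay below both transcriptome libraries. In bulk libraries, reads of a gene from granulosa cells and from the oocyte cannot be told apart. The number higher was 3 with the WT libraries alone and between 4 (without transcriptome sample 1 or translatome sample 2) and 8 when 1 WT library was left out. No marker of blood cells passed the test, of 6 tested, including Cd68 (log2 -0.34) and Hbb-bt (-0.84). The part of granulosa RNA in the other results was not tested.

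**Figure D5:**
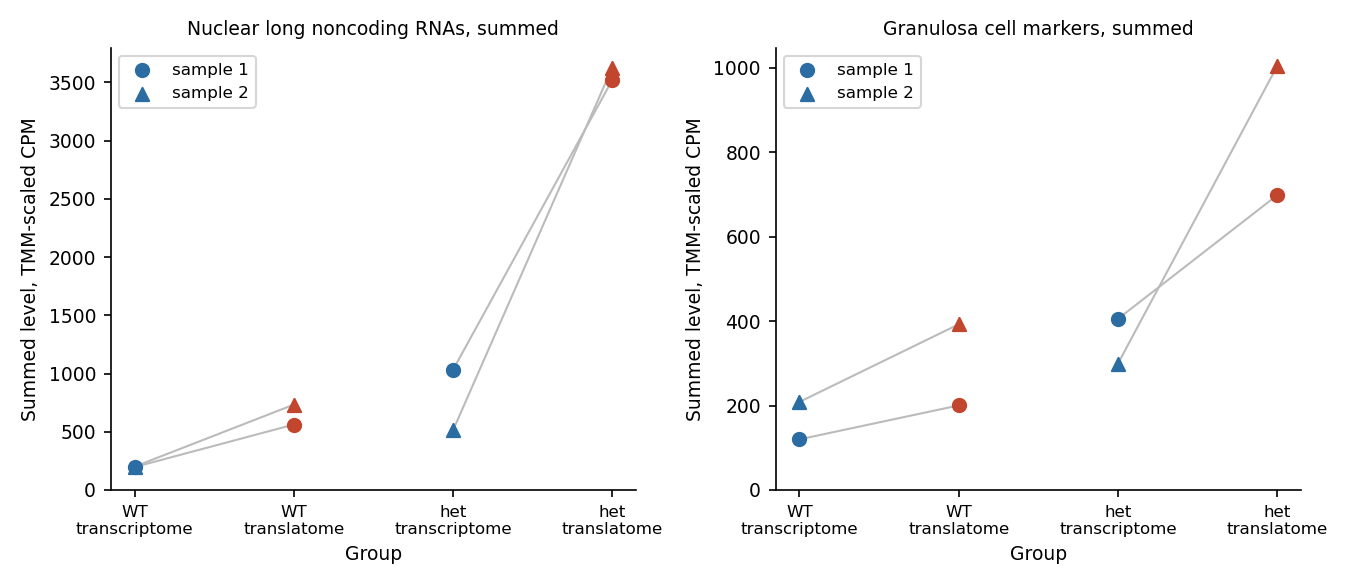
Summed level (TMM-scaled CPM) of the nuclear long noncoding RNAs (left) and of the granulosa cell markers (right) in each GV library (blue, transcriptome; red, translatome; circles, sample 1; triangles, sample 2; grey lines join the fractions of a sample). Each sample's translatome lies above its own transcriptome in both panels.

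Het oocytes gave the same comparison in other libraries of the study, though the transcriptome libraries there held 3.62 M and 19.82 M counts. There 1386 genes were higher in the translatome (6.19%) and 428 lower (1.91%). Called higher in both genotypes were 761 genes, 37.9% of the WT and 54.9% of the het list, and called lower in both were 154, 12.2% of the WT and 36.0% of the het list. Only 3 genes were called in opposite directions. Log2 fold changes correlated at 0.69 (Pearson) and 0.66 (Spearman) across the 9039 genes. Tested directly, the fraction difference departed between genotypes for 3 of 22409 genes (0.0134%), or 7 with the replicate block, and 1999 had an unadjusted p under 0.05 (edgeR). DESeq2 called 111. None of the 24 genes with the largest changes was among the 3, and none of the members of the gene lists. That does not show equal changes in het oocytes. As examples chosen after their values were seen, Arhgap11a had log2 3.14 in WT and 0.66 in het. Ybx3 had -2.23 and 0.46, and Lmbr1l 4.67 and 3.86.

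List medians in het oocytes were -0.62 for cytosolic ribosomal proteins (13 of 82 lower), -0.45 for nuclear-encoded respiratory subunits (3 of 76 lower and 5 higher) and -0.38 for mitochondrial ribosomal proteins (5 of 78 lower). For mitochondrially encoded mRNAs the het median was 0.26 with none called, for nuclear long noncoding RNAs 0.97 (7 of 15 higher) and for granulosa markers 0.90 (1 of 25 higher). For coding length the Spearman coefficient was 0.20 in het samples. Het medians from the shortest to the longest group were -0.33, 0.07, 0.23, 0.30 and 0.03, so they fell back in the longest. For GC content of the transcript the Spearman coefficient was 0.11 in WT and 0.40 in het oocytes. These genotype differences in lists and in coefficients were not tested.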

How the data were processed

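The authors deposited raw read counts per gene for 8 GV oocyte libraries, 56196 genes in all. Per the labels' protocols, poly(A) RNA of both fractions was reverse transcribed and amplified by a full-length method for single cells, and libraries were built with a transposase kit. Neither molecular identifiers nor strand marking is named, so amplified copies count as separate reads. Per the submitters' processing notes, the tools included HISAT2 2.1.0, featureCounts 1.6.5 and Trim Galore 0.6.4, with build mm10. How multi-mapping reads were counted is not given. Of the gene symbols 28 had become date numbers, and 27 were restored from the identifier.

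Counts were filtered with filterByExpr, scaled by TMM and tested with edgeR 4.0.16 (quasi-likelihood F test, R 4.3.3) in one model of the 4 GV groups, without a replicate term. Genes with a Benjamini-Hochberg adjusted p under 0.05 were called. The SE comes from the F statistic. Tested on simulated counts, estimates were close to the changes put in, but most changes of log2 1 were not called. A gene that was not called may therefore still differ. False calls made up more than the nominal share, so more of the called genes may be false than the threshold of 0.05 states. The specimen numbers in the labels pair the fractions of a sample. As a check, the deviations of the 2 fractions of a sample from their groups correlated at 0.0492 in WT and 0.265 in het across 9075 genes. Within-sample ratios are log2 of CPM plus 0.1. Alternatives were DESeq2 1.42.0, RLE scaling, library totals, 2 other filters, the replicate block, the WT libraries alone, thinning and leaving out each library.

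Named genes are the 12 highest and 12 lowest log2 changes among called genes averaging 10 CPM or more, with the same direction in both samples and groups that do not overlap (no predicted genes or pseudogenes). To these were added, for each list, up to 3 called members per direction with the smallest p (2 as values where none was called), and a set of known oocyte, translation and housekeeping genes. Members and the 27 lists were chosen with earlier results of these data known. Where a symbol occurs in the table more than once, its most abundant row was used. Coding lengths and 3′ ends are of 1 GENCODE transcript a gene on mm10. Embryo libraries were not used here.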

Additional observations from a re-analysis of the deposited data

Results flagged for a closer look

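For 3 genes the fraction difference itself differed between het and WT oocytes in a direct test (edgeR interaction term, adjusted p = 0.0254 for each). Mtfr2, a regulator of mitochondrial fission, had 35.5 and 40.9 CPM in the WT translatome, 57.6 and 66.5 in the WT transcriptome, 10.1 and 10.6 in the het translatome and 108 and 103 in the het transcriptome. Its het minus WT difference was -2.65 (SE 0.34). Mycl, a Myc family transcription factor, had 10.7 and 10.7 CPM on ribosomes and 0.632 and 0.559 in total mRNA in WT, against 6.11, 8.14, 5.75 and 5.24 in het, a difference of -3.77 (SE 0.50). The predicted gene Gm21887 had 11.4, 9.59, 12.1 and 6.73 CPM in WT and 62.1, 63.7, 3.75 and 5.62 in het, a difference of 3.51 (SE 0.47). In all 3 the het and WT within-sample differences did not overlap, which follows largely from their choice by this test.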

How the results depend on the processing

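The numbers of genes higher and lower in the WT translatome (2006 and 1263) were within 1.5 times of these with DESeq2, RLE scaling, library totals, either other filter, thinning and the replicate block (2238 and 1660). With the 4 WT libraries alone they were 1141 and 429, and 800 were lower with the replicate block added to those 4. With the test against a log2 change of 1 they were 284 and 18. Leaving out 1 of the 8 libraries gave 940 to 1836 higher and 255 to 1038 lower. The 3 genes whose fraction difference departed between genotypes became 111 with DESeq2, 108 with no expression filter, 7 with the replicate block, 0 against a log2 change of 1 and 0 to 10 with 1 library left out. The causes of these shifts were not tested, except that fewer samples enter the smaller fits. Of the 114 named genes called, none changed direction in the 17 alternatives and 50 stayed called in each. The library named beside a lost call is the one whose removal gave the largest adjusted p. Some of these calls were lost without other libraries too. Beside the Zp1 and Bmp15 calls the replicate block changed no other call of a named gene. List medians kept their sign in all fits for 21 of the 27 lists, though the spindle list turned from 0.13 to -0.11 against genes of like coding length. The exceptions were oocyte markers, blood markers, decay genes, the TCA cycle and glycolysis, ER genes, and RNA polymerase II with splicing. No scaling moved the median of all genes by 0.1. Depth limits genes of a few CPM most, since translatome sample 2 had 17.84 M counts.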
